A study of Sus scrofa with 6 samples.

Results

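The Aurora kinases AURKA, AURKB and AURKC, the polo-like kinases PLK1, PLK2, PLK3 and PLK4, and the Aurora A activators TPX2 and BORA were examined in porcine oocytes. These 9 genes were selected by name from 29861 genes in the expression table, and they were chosen with their values in these samples known. Their levels and differences are therefore given as a description, and where a fit over all genes called some of them, the count is printed with nothing read from it. RNA of the oocytes had been sequenced in 3 groups of 2 samples each, and the labels give a time of 24 h for all of them. Control oocytes were cultured without heat, heat-stressed oocytes at a raised temperature, and NMN-supplemented oocytes at the raised temperature with nicotinamide mononucleotide (NMN), a precursor of the coenzyme NAD+. NMN without heat was not among these samples, so the comparisons of the NMN-supplemented oocytes concern NMN on top of heat. The methods describe oocytes from abattoir ovaries, matured in vitro and pooled for each library. The labels name the germinal vesicle (GV) stage and the methods name metaphase II, so the stage of the sequenced oocytes was left unsettled. In the methods, heat lasted 24 h and culture then continued at the control temperature. Whether the oocytes were still in the heat when collected was thus left unsettled too.

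Aurora and polo-like kinases are protein kinases that drive entry into M phase, spindle assembly and chromosome segregation. Aurora A is switched on by BORA to activate PLK1 at M phase entry and is held on spindle microtubules by TPX2. Aurora B and Aurora C are the catalytic subunits of the chromosomal passenger complex, with Aurora C typical of meiotic cells. PLK4 builds centrioles, and PLK2 and PLK3 are known for responses to stress. A fully grown oocyte has little new transcription and lives on stored mRNA, so its mRNA levels also reflect how stored mRNA is kept or removed.

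The levels are FPKM, fragment numbers scaled to transcript length and to the size of the library, which allows genes of different length to be compared. Differences are given on the log2(FPKM + 1) scale with the standard error (SE) of a limma fit to all 6 samples. That fit covered the 4713 genes with a mean of at least 1 FPKM, among them 7 of the 9 genes described here. AURKB, with a mean of 0.874 FPKM, and PLK2, with 0.475 FPKM, were under this limit and are given by their levels. Since 1 library is a pool of oocytes, a lower level in each oocyte and a loss in some of them cannot be told apart.

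The libraries were checked before the kinases were described. All 14 oocyte markers were listed, with summed levels of 3553 and 3754 FPKM in control oocytes, 3509 and 3511 FPKM in heat-stressed oocytes and 3364 and 3112 FPKM in NMN-supplemented oocytes. Of the 13 tested oocyte markers, 4 were lower and 1 higher after heat at an unadjusted limma P under 0.05, 1 was lower and 1 higher for NMN against heat, and 6 were lower and 2 higher for NMN against control. At this threshold 10.1% of all tested genes were lower and 12.7% higher after heat, and 6.45% lower and 7.15% higher for NMN against heat. For NMN against control 15.7% were lower and 25.6% higher. AURKA and PLK1 were lower after heat and for NMN against control too. The part of the marker differences in their values was not tested. Of 15 markers of cumulus and granulosa cells, 14 were listed, with sums of 1.02 to 2.26 FPKM and none above 0.773 FPKM in any sample, and AMH and INHA were at 0 in all of them. The 3 listed of 4 blood and immune cell markers did not exceed 0.439 FPKM. Genes above 0 FPKM numbered 15707 to 17163 per sample. The pseudogene LOC100513953 made up 37% of the nuclear FPKM in heat-stressed replicate 1 and 0 in the other samples. The 13 mitochondrial genes took 61.7% to 66.4% of all FPKM in control oocytes, 62.4% and 71.6% in heat-stressed oocytes and 74.2% and 74.7% in NMN-supplemented oocytes. The part of this share in the results was not tested.

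AURKA was the most abundant of the 9 mRNAs in control oocytes and the one that varied most among the 7 fitted genes. AURKA, which encodes Aurora A, stood at 31.6 and 39.1 FPKM in control oocytes, 18.7 and 17.0 FPKM in heat-stressed oocytes and 9.75 and 11.4 FPKM in NMN-supplemented oocytes. The groups did not overlap, and the order ran downward from control to heat stress to heat stress with NMN. The mean was 35.4 ± 5.31 FPKM (SD, n = 2) in control oocytes, 17.9 ± 1.20 in heat-stressed oocytes and 10.6 ± 1.19 in NMN-supplemented oocytes. It was thus 1.98-fold lower after heat than in the control, with a log2 difference of -0.94 (SE 0.15). With NMN it was a further 1.69-fold lower than with heat alone, a log2 difference of -0.71 (SE 0.15). Between NMN-supplemented and control oocytes the gap was 3.34-fold, a log2 difference of -1.65 (SE 0.15). Of the other 4712 tested genes, 92 were lowered more by heat stress on this scale, and 204 were lower than AURKA in the difference between NMN-supplemented and heat-stressed oocytes. Even at its lowest, AURKA ranked at the 96.7th percentile of genes above 0 FPKM in its sample. Without heat-stressed replicate 1, the library with the pseudogene, the difference after heat was -1.01 and that of NMN against heat was -0.64.

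**Figure D1:**
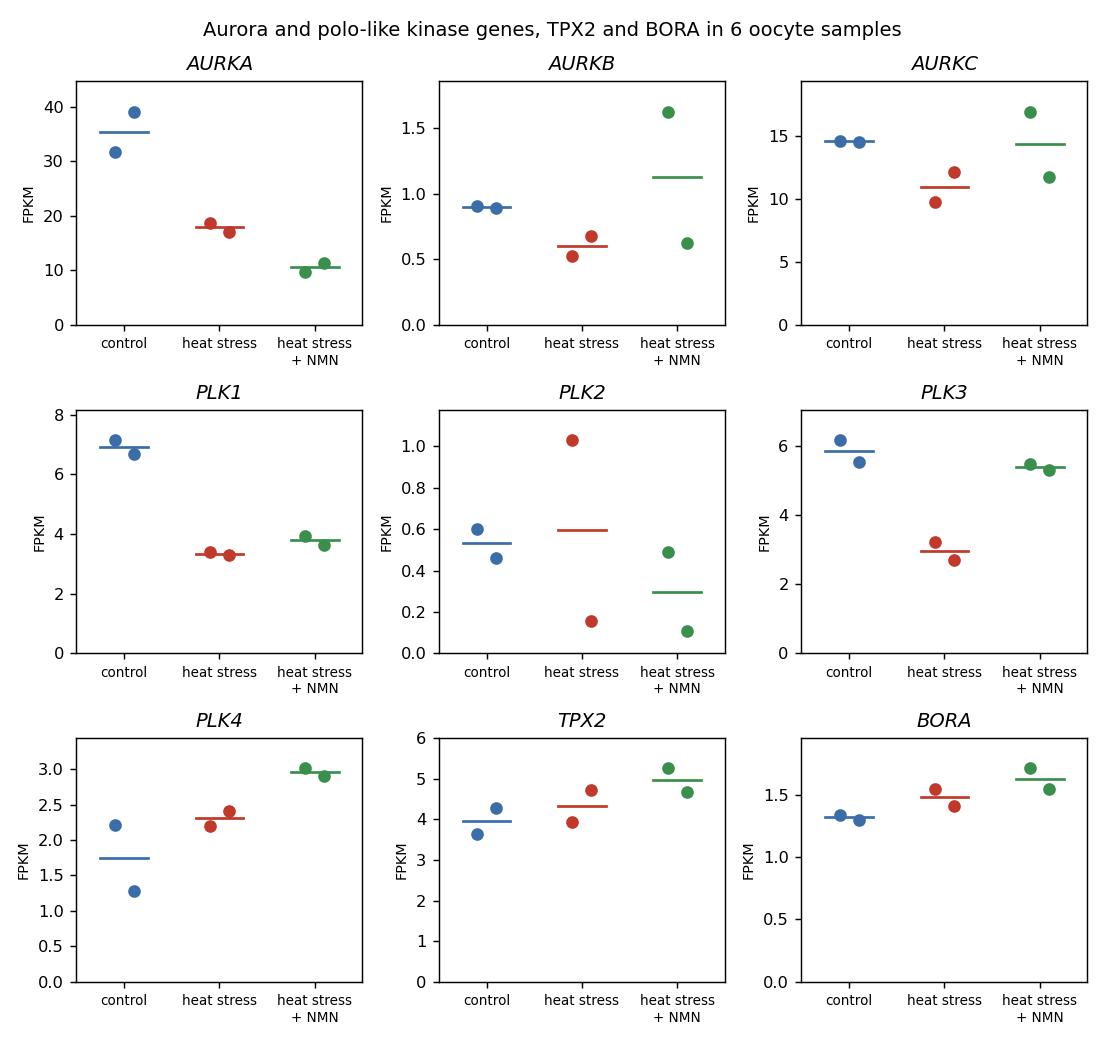
Level of each gene in FPKM (y axis, linear, from 0) in the 3 groups of oocytes, where a point is a sample and a line is the mean of 2 samples. AURKA descended over the 3 groups to 9.75 FPKM, PLK1 stayed below 4 FPKM in both heated groups, and PLK3 stood above 5 FPKM in the control and NMN-supplemented samples only.

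The mRNAs of the Aurora A activators did not descend over the groups as AURKA did. TPX2, the spindle protein that binds and activates Aurora A, was measured at 3.64 and 4.28 FPKM in control oocytes, 3.94 and 4.71 FPKM in heat-stressed oocytes and 5.25 and 4.67 FPKM in NMN-supplemented oocytes. The heat-stressed samples overlapped with each of the other groups, while both NMN-supplemented samples lay above both controls. The log2 difference was 0.10 (SE 0.14) for heat stress, 0.16 (SE 0.14) for NMN against heat and 0.27 (SE 0.14) for NMN against control. Without heat-stressed replicate 1 the value for NMN against heat was 0.06, and without control replicate 1 the value for NMN against control was 0.17. The sign of the heat value turned to -0.18 when samples were scaled to the same nuclear FPKM sum and to -0.0016 without heat-stressed replicate 2. BORA, the cofactor through which Aurora A activates PLK1, lay at 1.34 and 1.30 FPKM in control oocytes, 1.55 and 1.41 FPKM in heat-stressed oocytes and 1.71 and 1.54 FPKM in NMN-supplemented oocytes. Its 6 values spanned 1.32-fold from lowest to highest, the narrowest span of the 9 genes. Its log2 difference was 0.10 (SE 0.12) for heat stress, which became -0.11 at the same nuclear FPKM sum, 0.08 (SE 0.12) for NMN against heat and 0.18 (SE 0.12) for NMN against control.

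The balance between the kinase mRNA and the mRNA of its activator differed accordingly. The ratio of AURKA to TPX2 in FPKM was 8.68 and 9.15 in control oocytes, 4.75 and 3.61 in heat-stressed oocytes and 1.86 and 2.45 in NMN-supplemented oocytes. The ratio of AURKA to BORA went from 23.6 and 30.1 in control oocytes to 12.1 and 12 in heat-stressed oocytes and 5.70 and 7.40 in NMN-supplemented oocytes. Neither ratio overlapped between any of the groups, and neither did AURKA itself. The share of other ratios without overlap was not computed. Of all tested genes, 54.7% did not overlap between heat and control, 53.5% between NMN and heat, and 69.9% between NMN and control. Both ratios are taken within a sample and so do not depend on how the samples were scaled.

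PLK1 was lower in both heated groups. PLK1, the polo-like kinase that activates CDK1 and organises the spindle, stood at 7.15 and 6.68 FPKM in control oocytes, 3.38 and 3.30 FPKM in heat-stressed oocytes and 3.92 and 3.64 FPKM in NMN-supplemented oocytes. Both NMN-supplemented samples were slightly above both heat-stressed samples and far below both controls. The mean of 6.91 ± 0.329 FPKM (SD, n = 2) in control oocytes was 2.07-fold that of heat-stressed oocytes, with a log2 difference of -0.87 (SE 0.11). NMN-supplemented oocytes were 1.13-fold above heat-stressed oocytes, a log2 difference of 0.14 (SE 0.11). Against control oocytes they differed by -0.73 (SE 0.11). The ratio of PLK1 to BORA was 5.33 and 5.14 in control oocytes, 2.19 and 2.33 in heat-stressed oocytes and 2.29 and 2.36 in NMN-supplemented oocytes, so the ratios of the heated groups overlapped with each other.

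PLK3 was low in the heat-stressed samples and close to control in the NMN-supplemented samples. PLK3, a polo-like kinase known from stress and DNA damage responses, was at 6.17 and 5.53 FPKM in control oocytes, 3.21 and 2.70 FPKM in heat-stressed oocytes and 5.47 and 5.30 FPKM in NMN-supplemented oocytes. The NMN-supplemented values lay just under the lower control value, and the heat-stressed values were apart from all others. The mean was 1.98-fold lower after heat stress than in the control, with a log2 difference of -0.80 (SE 0.12). It was 1.82-fold higher with NMN than with heat alone, a log2 difference of 0.69 (SE 0.12). Of the other 4712 tested genes, 57 had a larger positive difference there, and nothing is read from this rank. NMN-supplemented and control oocytes differed by -0.10 (SE 0.12), which was -0.03 without control replicate 1 and -0.17 without control replicate 2. Leaving out heat-stressed replicate 1 gave -0.89 for heat and 0.79 for NMN against heat.

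**Figure D2:**
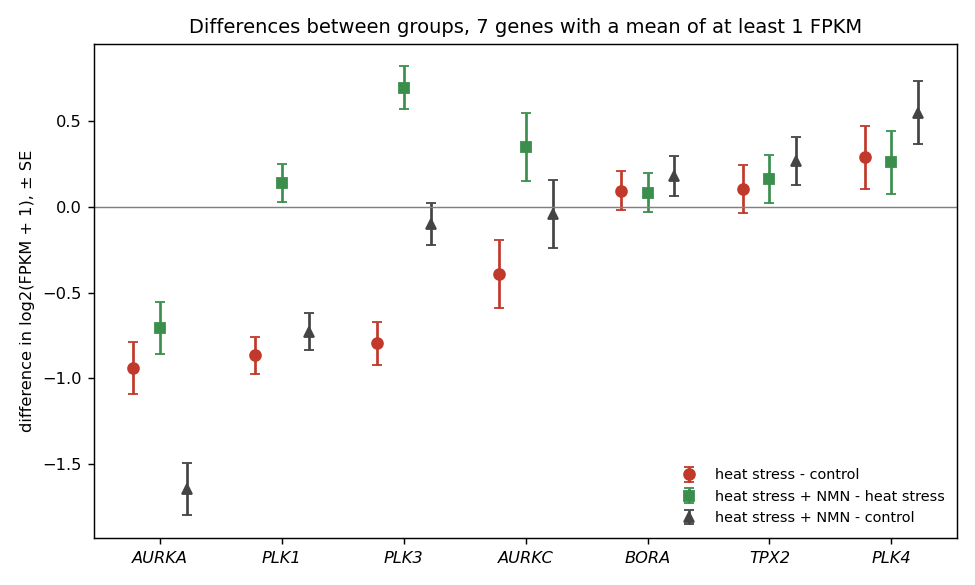
Difference in log2(FPKM + 1) between groups (y axis) for the 7 genes in the limma fit, with bars of 1 SE and the 3 comparisons marked by shape. AURKA was below 0 in each comparison, PLK1 was near 0 only for NMN against heat, and PLK3 was at -0.80 after heat, 0.69 for NMN against heat and -0.10 against control.

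PLK1 and PLK3 were near 1 to 1 in the control and heat-stressed groups and apart in the NMN-supplemented group. Their ratio was 1.16 and 1.21 in control oocytes, 1.06 and 1.22 in heat-stressed oocytes and 0.717 and 0.687 in NMN-supplemented oocytes. PLK1 made up 44.3% and 47.9% of the summed FPKM of the 4 polo-like kinases in control oocytes, 34.5% and 38.5% in heat-stressed oocytes and 30.4% and 30.5% in NMN-supplemented oocytes. The sum itself was 16.1 and 14.0 FPKM in control oocytes, 9.82 and 8.56 FPKM in heat-stressed oocytes and 12.9 and 11.9 FPKM in NMN-supplemented oocytes.

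PLK4 was highest in the NMN-supplemented samples. PLK4, the kinase that starts centriole duplication, was at 2.21 and 1.28 FPKM in control oocytes, 2.2 and 2.41 FPKM in heat-stressed oocytes and 3.01 and 2.90 FPKM in NMN-supplemented oocytes. The NMN-supplemented samples were above the other 4, whereas a control sample reached the heat-stressed range. The log2 difference was 0.29 (SE 0.18) for heat stress, 0.26 (SE 0.18) for NMN against heat and 0.55 (SE 0.18) for NMN against control. The control replicates decide the first and the last of these values, because without control replicate 2 they were 0.04 and 0.30 and without control replicate 1 they were 0.54 and 0.79. PLK2, a polo-like kinase inducible by stress, was low throughout, with 0.601 and 0.462 FPKM in control oocytes, 1.03 and 0.157 FPKM in heat-stressed oocytes and 0.491 and 0.106 FPKM in NMN-supplemented oocytes. The replicates of the heat-stressed group were further apart than any group means, so no difference could be read for PLK2.

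Aurora C and Aurora B were far apart in level and both spread widely in the NMN-supplemented group. AURKC was at 14.6 and 14.5 FPKM in control oocytes, 9.72 and 12.1 FPKM in heat-stressed oocytes and 16.9 and 11.7 FPKM in NMN-supplemented oocytes. The heat-stressed samples lay below both controls, and the NMN-supplemented samples overlapped with both other groups. The log2 difference was -0.39 (SE 0.20) for heat stress, 0.35 (SE 0.20) for NMN against heat and -0.04 (SE 0.20) for NMN against control. Single libraries decided these values. Heat stress gave -0.25 without heat-stressed replicate 1. NMN against heat gave 0.20 without that library, 0.10 without NMN-supplemented replicate 1 and 0.60 without NMN-supplemented replicate 2. NMN against control gave -0.29 and 0.20 without these NMN-supplemented replicates in turn. AURKB was listed at 0.907 and 0.889 FPKM in control oocytes, 0.524 and 0.676 FPKM in heat-stressed oocytes and 1.63 and 0.624 FPKM in NMN-supplemented oocytes. AURKC exceeded AURKB in every sample, by 10.4-fold to 18.8-fold.

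The leading Aurora mRNA was not the same in the 3 groups. AURKA to AURKC stood at a ratio of 2.16 and 2.69 in control oocytes, 1.93 and 1.41 in heat-stressed oocytes and 0.576 and 0.973 in NMN-supplemented oocytes. AURKC was thus above AURKA in both NMN-supplemented samples and in none of the other 4, although in NMN-supplemented replicate 2 the levels nearly met. AURKA made up 67.1% and 71.7% of the summed Aurora FPKM in control oocytes, 64.6% and 57.1% in heat-stressed oocytes and 34.5% and 48.0% in NMN-supplemented oocytes. The Aurora sum was 47.2 and 54.6 FPKM in control oocytes, 29.0 and 29.8 FPKM in heat-stressed oocytes and 28.3 and 23.8 FPKM in NMN-supplemented oocytes.

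**Figure D3:**
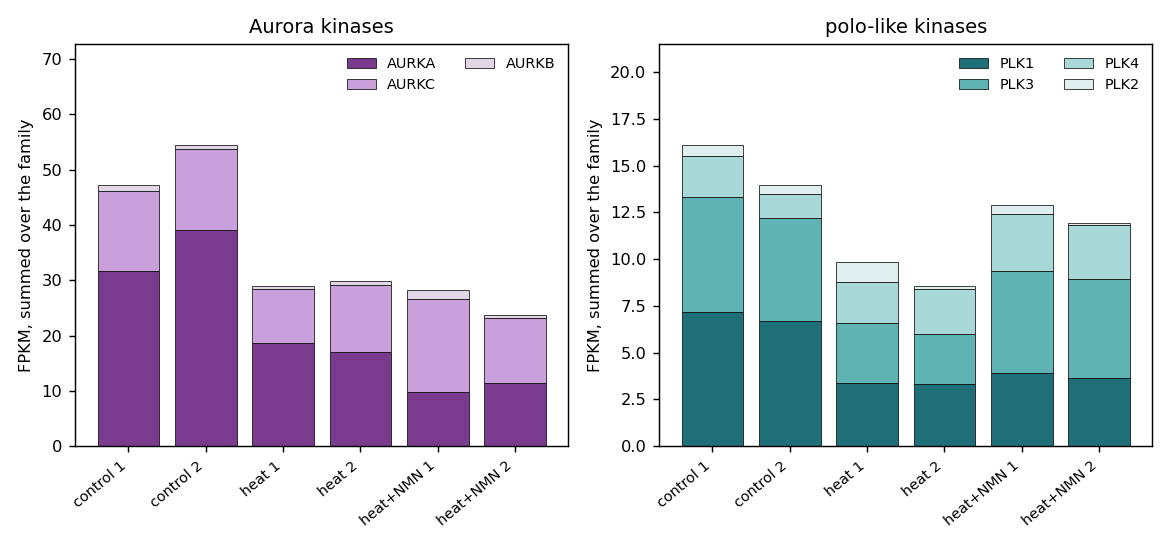
Summed FPKM of the Aurora kinases (left) and of the polo-like kinases (right) in each of the 6 samples, with each bar divided by gene. AURKA filled 67.1% and 71.7% of the Aurora bar in control oocytes and 34.5% and 48.0% in NMN-supplemented oocytes, and PLK1 filled 30.4% and 30.5% of the polo-like kinase bar there.

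By mean FPKM the genes ran AURKA, AURKC, PLK1, PLK3, TPX2, PLK4, BORA, AURKB, PLK2 in control oocytes. Only the neighbours PLK4 and BORA overlapped in that order. In heat-stressed oocytes TPX2 stood above PLK1 and PLK3, and only AURKB and PLK2 overlapped. In NMN-supplemented oocytes AURKC came first and PLK3 stood above TPX2 and PLK1, with BORA and AURKB as the only overlapping neighbours.

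Counted together, 3 of the 7 fitted genes passed an unadjusted P of 0.05 after heat stress (AURKA, PLK1 and PLK3, all lower). Among all tested genes 22.8% passed, 12.7% as higher and 10.1% as lower. For NMN against heat, 2 of 7 passed, AURKA as lower and PLK3 as higher, beside 13.6% of all tested genes, 7.15% as higher and 6.45% as lower. For NMN against control, 3 of 7 passed, AURKA and PLK1 as lower and PLK4 as higher, beside 41.3% of all tested genes, 25.6% as higher and 15.7% as lower. At an adjusted P under 0.05, limma called 0% of all tested genes for heat stress, where 1074 passed unadjusted, and 0% for NMN against heat, where 641 did. For NMN against control it called 21.5%, AURKA and PLK1 among them. The groups did not overlap for 5, 4 and 6 of the 7 genes in these comparisons, while the share over all tested genes was 54.7%, 53.5% and 69.9%. The median log2 difference of the 7 genes was -0.39, 0.16 and -0.04, beside 0.05, 0.08 and 0.11 over all tested genes. Since the genes were chosen from these same values, nothing is read from their counts. The directions over all genes depended on scaling, on the filter and on single libraries. At the same nuclear FPKM sum, which the pseudogene alters, 34 genes were higher and 528 lower after heat instead of 598 and 476, and 279 and 510 instead of 1208 and 740 for NMN against control. For NMN against heat that scaling gave 182 and 87, and quantile normalization gave 218 and 310, instead of 337 and 304. With the pseudogene left out of the sum the heat split was 333 and 488. With a mean of at least 0.1 FPKM the splits were 818 and 1047, 504 and 657, and 1544 and 1692 in the 3 comparisons. For NMN against heat, 89 were higher and 238 lower without NMN-supplemented replicate 1, 126 and 257 without NMN-supplemented replicate 2, 163 and 255 without heat-stressed replicate 1, and 316 and 363 without heat-stressed replicate 2. After heat the split was 389 and 437 without heat-stressed replicate 1 and 420 and 428 without heat-stressed replicate 2. The median of all tested genes at the same nuclear FPKM sum was -0.22, 0.35 and 0.13 in the 3 comparisons.

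The genes lie apart from each other in the genome. In the pig assembly Sscrofa11.1, the build of the table, AURKA is on chromosome 17 at 56954838 to 56972435 (minus strand) and TPX2 on the same chromosome at 35431271 to 35484814 (plus strand). PLK1 is on chromosome 3 at 22537814 to 22550901 (minus strand) and BORA on chromosome 11 at 45017651 to 45045127 (plus strand). AURKC at 61584575 to 61588402 (plus strand) and PLK3 at 166528760 to 166533734 (minus strand) are both on chromosome 6. PLK2 is on chromosome 16 at 37299116 to 37305114 (minus strand) and PLK4 on chromosome 8 at 96989011 to 97013324 (minus strand). AURKB is on chromosome 12 at 53410833 to 53426165 (minus strand), but the table places it in a merged locus of 6.75 Mb with 108 annotated genes, so its value is less certain.

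Some reads could be shared with other genes. Exons of AURKA overlap those of CSTF1 on the opposite strand by 206 of 2297 bases, and a strand-specific library was not stated. CSTF1 stood at 5.66 and 8.22 FPKM in control oocytes, 6.22 and 6.21 FPKM in heat-stressed oocytes and 4.99 and 4.71 FPKM in NMN-supplemented oocytes, each below AURKA in the same sample. BORA shares 293 of 4317 exonic bases with MZT1, which was above BORA in all samples, so the low level of BORA is the least certain in this respect. MZT1 was at 3.98 and 3.16 FPKM in control oocytes, 4.13 and 3.87 FPKM in heat-stressed oocytes and 6.06 and 5.81 FPKM in NMN-supplemented oocytes. The part of MZT1 reads in the differences of BORA was not tested. The antisense neighbours of PLK1 (ERN2) and PLK3 (TCTEX1D4) were listed at 0 in all 6 samples. Between AURKB and AURKC, 79.7% of aligned coding bases were identical, but the longest identical run was 29 bases. AURKA shared runs of at most 23 bases with either of them.

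The 3′ ends of the transcripts are of interest because stored oocyte mRNAs are known to be controlled there by the cytoplasmic polyadenylation element (CPE), the binding site of CPEB proteins. The last 100 bases of the longest RefSeq transcript of each gene in Sscrofa11.1 were searched on the transcript strand for TTTTAT or TTTTAAT, the CPE, and for AATAAA or ATTAAA, the polyadenylation signal. The CPE was found in PLK3, TPX2, BORA, PLK2 and AURKB, which is 5 of 9 genes. It was found in 17.2% of 17413 annotated genes and 25.7% of 3910 tested genes, counting only genes with a 3′ UTR of at least 100 bases. PLK2 and AURKB are not among the tested genes. A window of 30 bases from each of the 5 is shown because these are the genes with a match near the end, with the CPE and any polyadenylation signal in capitals.
PLK3, chr6:166528826-166528855, minus strand: tttatggaccacTTTTATttattgacagac
TPX2, chr17:35484718-35484747, plus strand: cccctttcctaTTTTAATcagaaAATAAAg
BORA, chr11:45045048-45045077, plus strand: acaagttcatttTTTTATcAATAAAtattt
PLK2, chr16:37299152-37299181, minus strand: tatcaattttttTTTTATgttgaccatttt
AURKB, chr12:53410846-53410875, minus strand: cttctccctcctTTTTATttAATAAAggcg
In AURKB, BORA and TPX2 the signal AATAAA follows the CPE within the window. AURKA, AURKC, PLK1 and PLK4 had no CPE of these letters in the last 100 bases. PLK1 held 1 and PLK4 held 8 further upstream in the 3′ UTR, and AURKA had none in its whole 3′ UTR of 671 bases, nor a polyadenylation signal. That signal was in the last 100 bases of 82% of these 3910 tested genes, but not of AURKA or PLK4. AURKA has 6 annotated mRNAs, and the longest alone was searched. Whether these annotated ends are those used in oocytes was not tested. The methods do not state how mRNA was selected for the libraries. The part of poly(A) tail length in the levels was not tested. Of the genes with large differences, AURKA and PLK1 thus had no match near the end and PLK3 had 1, which is a description of sequence only.

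The wider pathway was read from 112 partner and target genes in 9 lists, of which 111 were in the table and 61 were tested. At an unadjusted limma P under 0.05, 9 of the 61 rose and 3 fell after heat stress, 19.7% in all, below the 22.8% of all tested genes. For NMN against heat 8 rose and 3 fell, which is 18.0% beside 13.6%. For NMN against control 25 rose and 7 fell, which is 52.5% beside 41.3%. An adjusted limma P under 0.05 was reached there by 15 of the 61, beside 21.5% of all tested genes. In the other comparisons it was reached by no tested gene, partner or not. The median log2 difference of the 61 was 0.12, 0.17 and 0.28 in the 3 comparisons. At the same nuclear FPKM sum the counts were 0 up and 2 down, 2 up and 0 down, and 5 up and 4 down. With the pseudogene left out of that sum they were 5 and 3, 5 and 2, and 24 and 7.

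**Figure D4:**
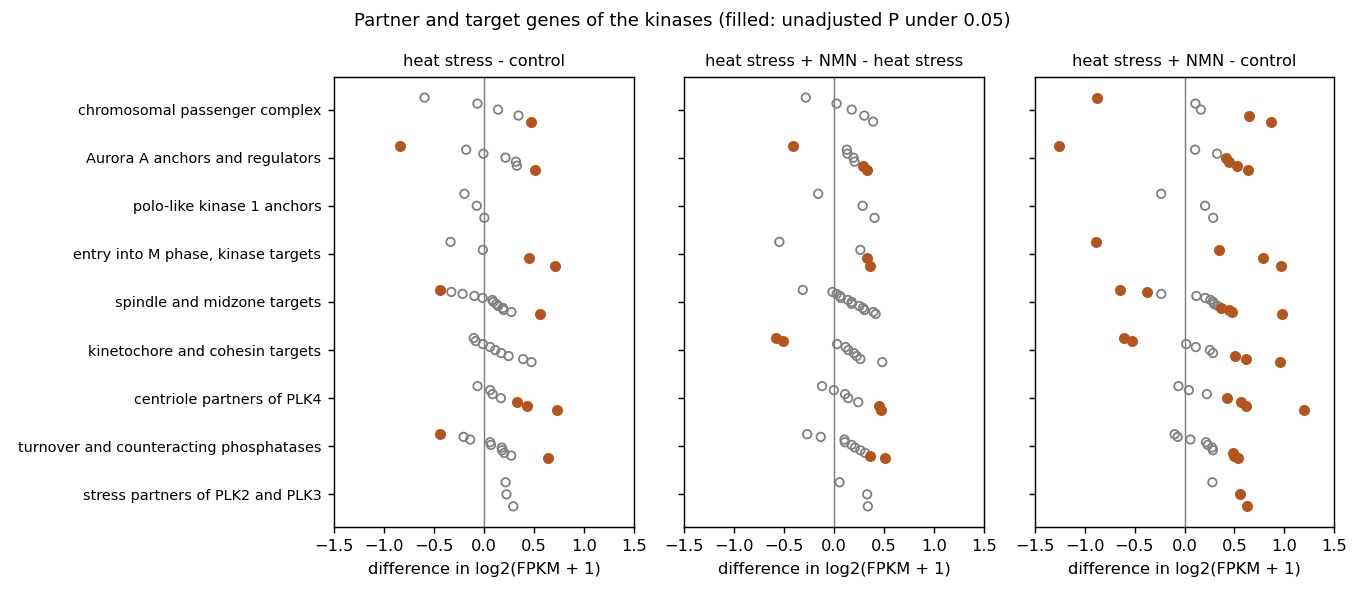
Difference in log2(FPKM + 1) (x axis) of the 61 tested partner genes in 9 lists (y axis) for the 3 comparisons, with filled points for an unadjusted limma P under 0.05. For NMN against control 25 filled points lie to the right of 0 and 7 to the left, the lowest being AJUBA at -1.26.

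Among the anchors and regulators of Aurora A, 7 of 14 genes were tested. AJUBA, a LIM domain protein that promotes Aurora A activation, was at 5.51 and 5.59 FPKM in control oocytes, 2.97 and 2.38 FPKM in heat-stressed oocytes and 1.81 and 1.67 FPKM in NMN-supplemented oocytes. It descended over the groups without overlap, as AURKA did. It fell by 0.84 on the log2 scale after heat (SE 0.13, adjusted P = 0.111 in limma) and differed from control by -1.26 with NMN (SE 0.13, adjusted P = 0.0202 in limma). PPP6C, the catalytic subunit of the phosphatase that opposes Aurora A, rose by 0.51 (SE 0.17, adjusted P = 0.183 in limma) after heat and was 0.64 above control with NMN (SE 0.17, adjusted P = 0.049 in limma). The spindle partners TACC3 and CKAP5 rose by 0.29 (SE 0.10) and 0.33 (SE 0.13) from heat stress to NMN, with adjusted P = 0.354 and 0.36 in limma. TACC3 was abundant, with 76.1 to 97.0 FPKM over the samples.

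In the chromosomal passenger complex list, which holds the partners of Aurora B and C, 5 of 6 genes were tested. SGO2, a shugoshin that protects centromeric cohesin, was at 4.62 and 3.50 FPKM in control oocytes, 5.47 and 6.53 FPKM in heat-stressed oocytes and 8.61 and 7.70 FPKM in NMN-supplemented oocytes. It rose by 0.47 (SE 0.16, adjusted P = 0.184 in limma) after heat and was 0.86 above control with NMN (SE 0.16, adjusted P = 0.0272 in limma). Its relative SGO1 was 0.65 above control with NMN (SE 0.22), and BIRC5, which encodes survivin, a core subunit, differed by -0.88 (SE 0.29). Both passed only the unadjusted threshold, with adjusted P = 0.0862 and 0.0816 in limma. The core subunit INCENP, at 1.47 to 1.91 FPKM, differed by 0.11 (SE 0.13) between NMN-supplemented and control oocytes and did not pass.

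All 4 tested genes of M phase entry passed the unadjusted threshold for NMN against control, 3 as higher and 1 as lower, where 41.3% of all tested genes passed. FBXO43 inhibits the anaphase-promoting complex to maintain metaphase II arrest, and PLK1 phosphorylates it for degradation. It was at 20.9 and 18.5 FPKM in control oocytes, 30.6 and 35.3 FPKM in heat-stressed oocytes and 43.4 and 36.1 FPKM in NMN-supplemented oocytes. WEE2, the oocyte kinase that inhibits CDK1, was at 157 and 134 FPKM in control oocytes, 201 and 198 FPKM in heat-stressed oocytes and 251 and 249 FPKM in NMN-supplemented oocytes. Both inhibitors were higher in every heated sample than in either control. FBXO43 rose by 0.71 after heat (SE 0.15, adjusted P = 0.12 in limma), and WEE2 rose by 0.46 (SE 0.12, adjusted P = 0.14 in limma). Against control, NMN-supplemented oocytes were higher by 0.97 for FBXO43 (SE 0.15, adjusted P = 0.0211 in limma) and by 0.78 for WEE2 (SE 0.12, adjusted P = 0.0218 in limma). FBXO5, the related inhibitor known from mitosis, rose by 0.36 (SE 0.13, adjusted P = 0.352 in limma) from heat stress to NMN. CDC25B, the phosphatase that activates CDK1 at meiotic resumption, was at 3.01 and 3.07 FPKM in control oocytes and 0.755 and 1.73 FPKM in NMN-supplemented oocytes, a difference of -0.88 (SE 0.25, adjusted P = 0.0592 in limma).

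The centriole partners of PLK4 were higher where they passed. CCP110, which caps the ends of centrioles, was at 5.87 and 4.38 FPKM in control oocytes, 8.11 and 10.2 FPKM in heat-stressed oocytes and 13.2 and 12.7 FPKM in NMN-supplemented oocytes. It rose by 0.73 after heat (SE 0.17, adjusted P = 0.127 in limma) and was 1.20 above control with NMN (SE 0.17, adjusted P = 0.021 in limma). Of the 7 tested genes in this list, 3 rose and none fell after heat, and 4 rose and none fell for NMN against control. Over all tested genes 12.7% rose and 10.1% fell after heat, and 25.6% rose and 15.7% fell for NMN against control. SASS6, the cartwheel protein, rose by 0.43 (SE 0.13) and PCM1, of the centriolar satellites, by 0.33 (SE 0.13) after heat, with adjusted P = 0.16 and 0.217 in limma. STIL, which binds and activates PLK4, was at 1.93 and 1.98 FPKM in heat-stressed oocytes and 3.07 and 2.98 FPKM in NMN-supplemented oocytes, a rise of 0.44 (SE 0.11, adjusted P = 0.264 in limma).

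Spindle and kinetochore targets passed in both directions, and the cohesin genes that passed were higher. KIF20B, a kinesin of the spindle midzone, rose by 0.56 after heat (SE 0.20, adjusted P = 0.189 in limma) and was 0.98 above control with NMN (SE 0.20, adjusted P = 0.0294 in limma). STMN1, a microtubule destabiliser and Aurora B substrate, fell by 0.44 after heat (SE 0.13, adjusted P = 0.16 in limma). RACGAP1, a subunit of centralspindlin, differed by -0.64 between NMN-supplemented and control oocytes (SE 0.16, adjusted P = 0.0461 in limma). Of 13 tested spindle and midzone targets, 4 rose and 2 fell for NMN against control, beside 25.6% and 15.7% of all tested genes. Of 9 tested kinetochore and cohesin targets, 3 rose and 2 fell there. The cohesin release factors WAPL and PDS5A were 0.61 (SE 0.18) and 0.51 (SE 0.12) above control with NMN, with adjusted P = 0.0639 and 0.0391 in limma. The kinetochore scaffold KNL1 was 0.95 above control with NMN (SE 0.25, adjusted P = 0.0498 in limma). Members of the MIS12 complex fell from heat stress to NMN, DSN1 by 0.58 (SE 0.13) and MIS12 by 0.51 (SE 0.17), with adjusted P = 0.222 and 0.35 in limma. DSN1 was low, at 1.41 and 1.17 FPKM in heat-stressed oocytes and 0.595 and 0.457 FPKM in NMN-supplemented oocytes. No kinetochore or cohesin target of the 9 tested passed after heat, where 22.8% of all tested genes did.

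Among the genes of kinase turnover and the counteracting phosphatases, CDC20 fell with heat and rose with NMN. CDC20, the activator of the anaphase-promoting complex, was at 7.74 and 8.34 FPKM in control oocytes, 5.24 and 6.06 FPKM in heat-stressed oocytes and 9.90 and 7.13 FPKM in NMN-supplemented oocytes. The heat-stressed samples were below all others. The log2 difference was -0.45 (SE 0.17, adjusted P = 0.215 in limma) after heat and 0.50 (SE 0.17, adjusted P = 0.35 in limma) for NMN against heat. Its unadjusted limma P after heat was 0.171 without heat-stressed replicate 1, and that for NMN against heat was 0.155 without NMN-supplemented replicate 1. PPP1R2, an inhibitor of protein phosphatase 1, rose by 0.64 after heat (SE 0.13, adjusted P = 0.118 in limma), and PPP2R1A, the scaffold of protein phosphatase 2A, rose by 0.35 (SE 0.13, adjusted P = 0.355 in limma) from heat stress to NMN. The 3 tested anchors of PLK1 (BUB1B, CENPU and USP16) passed in no comparison. Of the stress partners of PLK2 and PLK3, 3 of 12 were tested and none passed after heat or for NMN against heat, whereas 2 were higher for NMN against control, where 25.6% of all tested genes were. These were the checkpoint kinase CHEK1 at 0.62 (SE 0.14) and the MAP kinase kinase MAP2K1 at 0.55 (SE 0.16), with adjusted P = 0.0381 and 0.0638 in limma.

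Single libraries decided many of these partner calls. Of the 12 named genes after heat, 5 passed without any 1 library (AJUBA, CCP110, FBXO43, PPP1R2 and WEE2), and the highest unadjusted limma P of the other 7 was between 0.0654 and 0.176. Leaving out heat-stressed replicate 2 ended 7 of these calls, control replicate 2 ended 6 and heat-stressed replicate 1 ended 5. For NMN against heat only DSN1 and STIL of 11 passed without any 1 library, and leaving out heat-stressed replicate 1 or NMN-supplemented replicate 1 ended 9 calls each, with an unadjusted limma P of up to 0.194. For NMN against control AJUBA, CCP110, KIF20B, FBXO43, SGO2 and WEE2 of 12 passed without any 1 library, and leaving out NMN-supplemented replicate 1 ended 5. Of the genes added to these for NMN against control, PDS5A and CHEK1 also passed without any 1 library, while WAPL reached an unadjusted limma P of 0.0817 without NMN-supplemented replicate 2 and MAP2K1 one of 0.0815 without NMN-supplemented replicate 1. No partner call named here changed its direction under any alternative. Only the scaling could have done so, because these genes were named for groups that did not overlap. The same nuclear FPKM sum, which the pseudogene alters, ended 11 of the 12 calls after heat, all but AJUBA. It ended 10 of the 11 for NMN against heat. For NMN against control it ended 3 of the 12, and also those of WAPL, PDS5A, CHEK1 and MAP2K1. With the pseudogene left out of the sum, 5, 5 and 0 of the 12, 11 and 12 calls ended. The adjusted calls for NMN against control, 1015 genes with all samples, were 373 without control replicate 1, 0 without control replicate 2, and 1 without either NMN-supplemented replicate.

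The genes closest in pattern were found by the root mean square difference of centred log2(FPKM + 1) values over the 6 samples among 4712 genes. For AURKA these were TMEM119 (0.09), TUFM (0.12) and PRSS8 (0.13). TMEM119 was at 3.19 and 4.26 FPKM in control oocytes, 1.15 and 1.19 FPKM in heat-stressed oocytes and 0.334 and 0.473 FPKM in NMN-supplemented oocytes. For PLK1 they were RNF5 (0.09), LOC110256842 (0.09) and TFE3 (0.10). RNF5, a ubiquitin ligase, was at 8.68 and 7.93 FPKM in control oocytes, 4.47 and 4.65 FPKM in heat-stressed oocytes and 4.33 and 4.37 FPKM in NMN-supplemented oocytes. For PLK3 they were LOC110257058 (0.09), ADRA2B (0.09) and LOC100524410 (0.11). ADRA2B, an adrenergic receptor, was at 2.76 and 2.31 FPKM in control oocytes, 1.09 and 0.810 FPKM in heat-stressed oocytes and 2.73 and 2.51 FPKM in NMN-supplemented oocytes.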

How the data were processed

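RNA of porcine oocytes was sequenced in 6 samples, 2 per group. According to the methods, the authors built mRNA libraries and aligned reads to the pig genome, and the submitters' processing notes name Cufflinks 2.2.1, Cuffnorm and Cuffdiff. The authors deposited FPKM per gene and sample, and these values were used. Their fold changes and P-values were not used. Read counts were not used here, so absolute depth is unknown. The smallest steps of low values give only a relative depth, 1 fragment being worth 0.871 to 1.36 times its FPKM in control replicate 1.

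The analysis scale was log2(FPKM + 1). A limma 3.58.1 model of the 3 groups (R 4.3.3, empirical Bayes with trend) was fitted to all 6 samples for genes with a mean of at least 1 FPKM, with Benjamini-Hochberg adjustment over all fitted genes, and was tested on simulated data. Nothing states that replicates came from separate cultures, so P-values measure the spread between these samples, which may be technical. The genes described and the partner lists were chosen with earlier results of these data known. Partner genes were named if they passed an unadjusted P of 0.05 without overlap of the groups, up to 12 per comparison by size of difference, and INCENP, BUB1B, CENPU, USP16, WAPL, PDS5A, CHEK1 and MAP2K1 were named after their values were seen. Sequences were read from RefSeq Sscrofa11.1 with pysam 0.24.0. Alternatives covered the pseudocount, filter, scaling, replicate block, trend, samples fitted and each sample left out.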

Additional observations from a re-analysis of the deposited data

How the results depend on the processing

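Over 15 alternatives, 20 of 300 log2 differences of the 7 kinase genes moved by more than the spread between replicates. All 20 came with a pseudocount of 0.1 FPKM or at the same nuclear FPKM sum. Nothing on stability is read from the other 280, because most could not move by more than this spread. The filter, replicate block, trend and samples fitted leave a difference as it is. Leaving out a sample shifts it by only a part of the gap between replicates, or not at all. Signs changed in 4 of the 300 differences (TPX2 and BORA for heat, AURKC for NMN against control). AURKA stayed between -1.29 and -0.79 for heat and between -0.81 and -0.35 for NMN against heat, PLK1 between -1.15 and -0.82 for heat, and PLK3 between -1.08 and -0.70 for heat and between 0.60 and 0.995 for NMN against heat. The depth of the libraries is unknown, which limits the low genes AURKB and PLK2 most.

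The counts over all genes are given for heat, NMN against heat and NMN against control in that order. With a mean of at least 0.1 FPKM, 1865, 1161 and 3236 genes passed unadjusted and 86 adjusted in the last. With a mean of at least 5 FPKM these were 468, 266, 791 and 546, with 6 and 13 partner genes in the last pair of comparisons. The filter changes how many genes are tested. At the same nuclear FPKM sum they were 562, 269 and 789, adjusted 84, 38 and 281, with 2, 2 and 9 partners. The pseudogene sets that scale, and without it, an alternative chosen after seeing the data, adjusted counts were 1, 1 and 558, with 7 partners for NMN against heat. Without the trend, 1 gene passed adjusted in each of the first pair, and the cause was not tested. With the replicate number as a block, 445 genes passed adjusted for NMN against control, and unadjusted counts were 937, 527 and 1815. For NMN against heat the block gave 215 higher and 312 lower. Same-numbered samples correlated at -0.032 to 0.00805 in their deviations. Nothing states whether the numbers pair the samples, and this correlation cannot tell how they were collected.

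Leaving out each sample gave 648 to 1015 genes for heat, 327 to 701 for NMN against heat and 1233 to 1941 for NMN against control, with 7 to 15, 2 to 14 and 14 to 32 partners. Adjusted counts ran from 0 to 1, 0 to 2 and 0 to 798. Fewer samples are fitted there, and a group left with 1 sample is assumed to vary like the others.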
